A study of Mus musculus with 18 samples.

Results

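The genes described are 10 members of the Notch pathway, taken by name from a table of 27997 genes, in which all 10 were found. They are the receptors Notch1, Notch2 and Notch3, the ligands Dll1, Dll3 and Jag1, and the target genes Hes1, Hes5, Hey1 and Heyl. RNA was sequenced from 3 mouse neural lines, each grown as adherent neural stem cells (NSCs) and each also differentiated into astrocytes, with 3 libraries in each of the 6 groups and 18 in all. The tdTomato line (genotype DNGR-1 +/- Tom+/-) and the EYFP line (DNGR-1 +/- EYFP+/-) came from spinal cord neurospheres sorted for the reporter. In these mice Cre is made from the gene of DNGR-1 (CLEC9A), a receptor known from dendritic cells, and the reporter marks cells that made it and their progeny. The hippocampal line is labelled DNGR-1+/+ and came from mice with GlastCre, floxed Huwe1 and a Cre-dependent EYFP reporter. Whether Huwe1 was recombined in that line is not stated.

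NSCs were grown on laminin with bFGF and EGF (20 ng/ml each) and harvested on day 4. Astrocytes were harvested on day 6 in medium with BMP4 (20 ng/ml), for which no bFGF or EGF is listed. The effects of BMP4, of growth factor removal and of time cannot be told apart. The libraries of a group were passages 10 to 12 of 1 line, so that p-values measure the spread between passages. Traced and hippocampal lines differ in region, genotype and being separate lines, which cannot be told apart either.

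In Notch signaling, a ligand on one cell binds a receptor on its neighbor, the receptor is cut, and its intracellular part enters the nucleus and joins RBPJ and Mastermind proteins on DNA. The Hes and Hey genes switched on in this way encode repressors, and the pathway is known for keeping neural progenitors undifferentiated.

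Values are log2 normalized expression values as deposited. A gene was tested when 3 or more libraries had a value of 3.32 or higher (10 before taking logs). This left 15448 genes and 9 of the 10 members. A gene is called higher or lower when its adjusted p (limma on all genes tested, Benjamini-Hochberg) is under 0.05. Heyl, a Hey family repressor on chromosome 4 (GRCm38, 123233556 to 123249875), did not reach the minimum in any library. It was listed at -1.04, -0.77 and -1.02 in EYFP NSCs and between -1.44 and -1.40 in the other 15 libraries.

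The fate labels were checked with marker lists. The summed level of 5 astrocyte markers was 14.15 to 15.25 on the log2 scale in NSC libraries and 15.90 to 17.31 in astrocyte libraries. Gfap, the intermediate filament gene of astrocytes, rose by 6.53. All 5 NSC markers passed the filter, but their summed level did not fall with differentiation, at 16.32 to 16.46 in NSC, 16.37 to 16.62 in traced astrocyte and 17.56 to 17.87 in hippocampal astrocyte libraries. Of these 5, Sox2, Vim and Prom1 rose and Nes and Fabp7 fell in astrocytes on average over the lines, and Nes, which encodes nestin, was lower in traced than in hippocampal astrocytes by 2.67. None of the 5 microglial markers passed, while the endothelial markers Pecam1, Cdh5 and Cldn5, the oligodendrocyte markers Sox10 and Mog and the mural marker Pdgfrb also did not. Markers of mural cells, in which Notch3 is a known receptor, had a summed level of 5.90 to 7.89 in NSC and 8.04 to 8.86 in astrocyte libraries (4 of 5 passed), and ependymal markers one of 9.45 to 10.51 and 11.02 to 12.35 (3 of 5 passed). Neuronal markers stood at 7.05 to 8.07 and 8.37 to 8.78 (3 of 5 passed), oligodendrocyte markers at 11.47 to 12.18 and 10.47 to 11.57 (4 of 6 passed), endothelial markers at 4.53 to 5.18 and 3.52 to 4.18 (2 of 5 passed) and fibroblast markers at 4.71 to 6.83 and 4.38 to 6.28 (3 of 4 passed, not Dcn). The part of these cells in the changes described next was not tested. In bulk RNA, fewer cells of a type and less RNA per cell cannot be told apart.

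From NSC to astrocyte, averaged over the 3 lines, 2 members rose (Notch2 and Hey1) and 7 fell, all 9 that were tested. Of all genes tested 86.3% were called in this comparison, 44.3% higher and 42% lower, so a call alone sets the members little apart. By at least 1 on the log2 scale, 4 of the 9 changed, Dll1, Dll3, Jag1 and Hes1, each downwards, against 24.7% of all genes. The libraries of the fates did not overlap for 6 of the 9, against 46.1% of all genes. The median change of the members was -0.83, beside 0.02 over all genes.

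**Figure D1:**
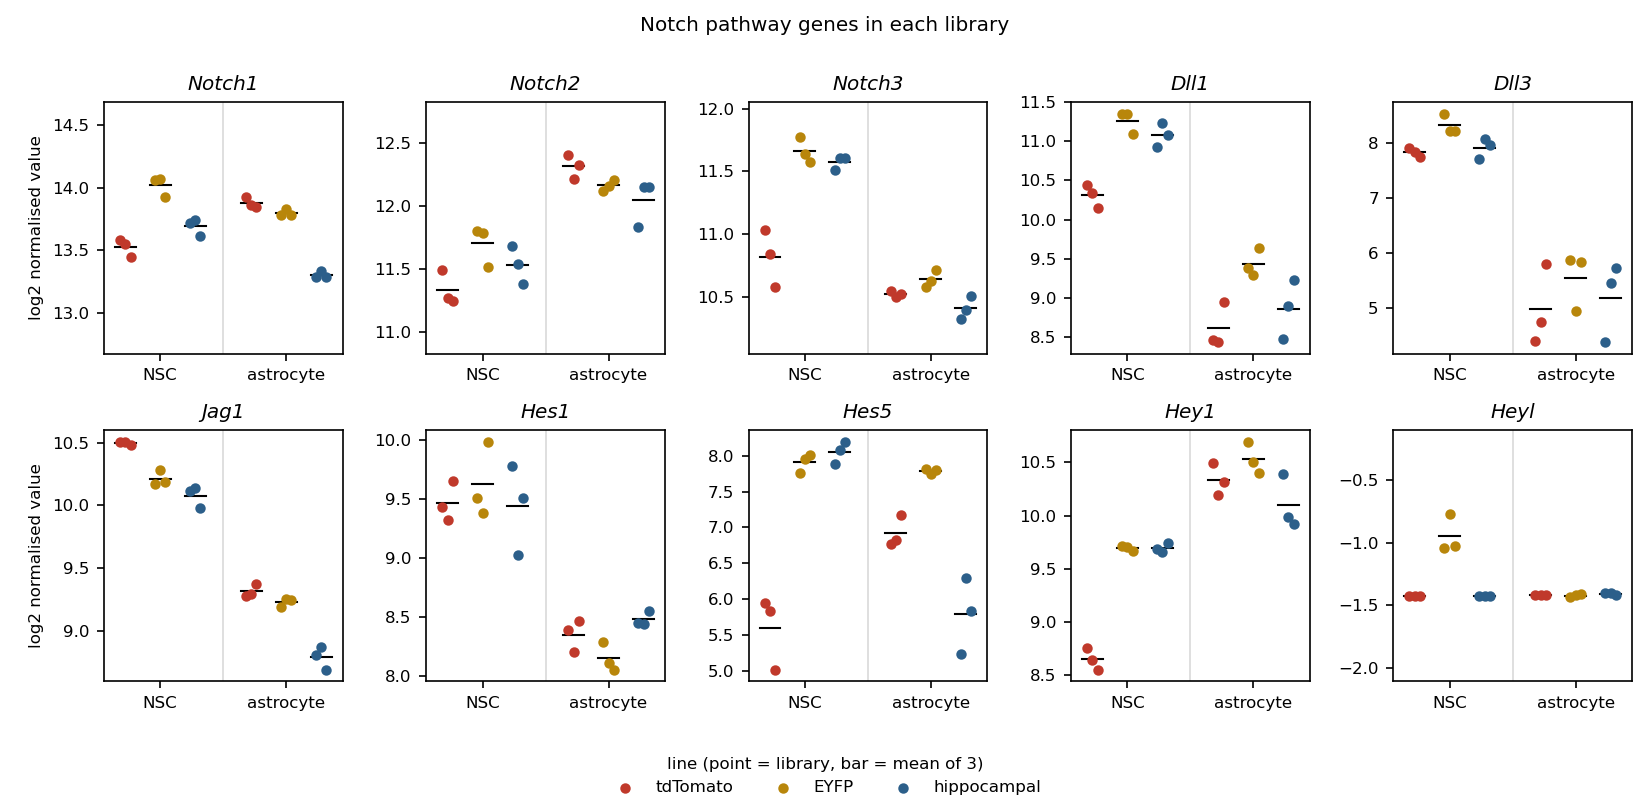
Log2 normalized value (vertical axis) of the 10 members in each of the 18 libraries, with points for libraries, bars for the mean of 3 and colors for the line. Dll1, Dll3, Jag1 and Hes1 are lower in all 9 astrocyte than in all 9 NSC libraries, Hey1 and Notch2 are higher, and Hes5 stands apart in tdTomato NSCs and hippocampal astrocytes.

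Among the receptors, the 3 genes took 3 courses. Notch1, on mouse chromosome 2 (GRCm38, 26457903 to 26516663), stood in NSCs at 13.58, 13.55 and 13.45 in the tdTomato line, 14.06, 14.07 and 13.93 in the EYFP line and 13.72, 13.75 and 13.62 in the hippocampal line. In astrocytes it stood at 13.93, 13.86 and 13.85 in the tdTomato line, 13.78, 13.83 and 13.78 in the EYFP line and 13.29, 13.34 and 13.29 in the hippocampal line. The fates did not overlap within any line, but the tdTomato line went up while the other lines went down. The rise in the tdTomato line was 0.35 ± 0.049 (SE; adjusted p = 3.37e-06), and the falls were 0.22 in the EYFP line (adjusted p = 0.000546) and 0.39 in the hippocampal line (adjusted p = 1.17e-06). The mean of these, a fall of 0.08 (adjusted p = 0.0101), is therefore not a change shared by the lines, and it missed the threshold after median centring of the libraries (adjusted p = 0.257) and with line as an additive covariate (adjusted p = 0.348).

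Notch2, a receptor that shares its ligands with Notch1 and lies on chromosome 3 (98013527 to 98150361), rose in each line. Its values were 11.25 to 11.80 in the 9 NSC libraries and 11.84 to 12.41 in the 9 astrocyte libraries, with no overlap. The rise was 0.98 ± 0.097 in the tdTomato line (adjusted p = 4.23e-08), 0.46 in the EYFP line (adjusted p = 0.000329) and 0.51 in the hippocampal line (adjusted p = 0.000116).

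Notch3, the receptor on chromosome 17 (32120820 to 32166852), fell in each line. In NSCs it stood at 11.04, 10.84 and 10.58 in the tdTomato line, 11.78, 11.64 and 11.58 in the EYFP line and 11.51, 11.61 and 11.61 in the hippocampal line. In astrocytes its values were 10.54, 10.50 and 10.52, then 10.58, 10.63 and 10.71, then 10.33, 10.40 and 10.51, in the same order of lines. The tdTomato NSCs were already low, and 1 of their libraries lay below all EYFP astrocyte libraries. The fall was accordingly 0.30 ± 0.083 in the tdTomato line (adjusted p = 0.00364), against 1.02 (adjusted p = 3.45e-09) and 1.17 (adjusted p = 4.9e-10) in the EYFP and hippocampal lines.

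Scaled by the length of all annotated exons, Notch1 was the most abundant receptor in all 18 libraries. It made up 64.2% ± 1.9 (SD, n = 3) of the summed receptor level per kb in tdTomato NSCs, 62.2% ± 0.92 in EYFP NSCs and 58.7% ± 0.53 in hippocampal NSCs, and 61.8% ± 0.92, 61.6% ± 1.0 and 55.9% ± 2.4 in the astrocytes of those lines. Among the 6 groups its mean share thus ranged from 55.9% to 64.2%. Notch2 moved from 16.5% to 18.6% of the receptor level in the NSC groups to 26.2% to 30.8% in the astrocyte groups, and Notch3 from 17.3% to 23.9% down to 10.6% to 13.2%. The second most abundant receptor was Notch3 in EYFP and hippocampal NSCs, and by mean share Notch2 in the other 4 groups, tdTomato NSCs included (18.6% against 17.3%). Notch2 lay above Notch3 per kb in 12 of 18 libraries. These shares are of transformed values, and they depend on the exon lengths: with the longest transcript in place of all exons, the Notch1 share was 72.5% in tdTomato NSCs and Notch1 was still first in all 18 libraries.

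**Figure D2:**
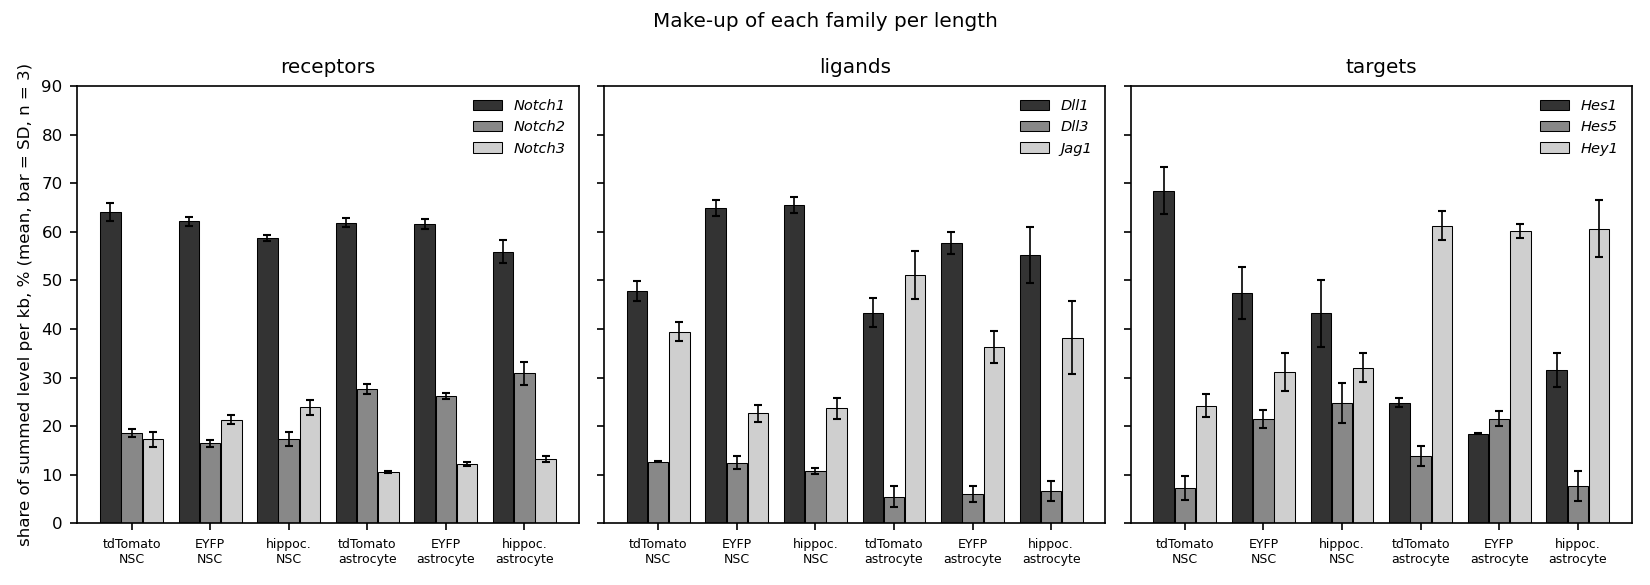
Share (vertical axis, %, mean of 3 libraries, error bars SD) of each gene in the summed level per kb of exon of its family, in the 6 groups: receptors (left), the ligands Dll1, Dll3 and Jag1 (middle) and targets (right). Notch1 leads the receptors in each group, Dll1 leads these ligands in all groups but tdTomato astrocytes, and Hey1 replaces Hes1 as the leading target in astrocytes of each line.

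The ligands Dll1, Dll3 and Jag1 fell. Dll1, which activates Notch on neighboring cells, lies on chromosome 17 (15367354 to 15376872, minus strand). In NSCs it stood at 10.45, 10.34 and 10.15 in the tdTomato line, 11.35, 11.35 and 11.09 in the EYFP line and 10.93, 11.24 and 11.08 in the hippocampal line. In astrocytes it stood at 8.46, 8.44 and 8.95 in the tdTomato line, 9.38, 9.29 and 9.64 in the EYFP line and 8.47, 8.89 and 9.23 in the hippocampal line. The lowest NSC library lay above the highest astrocyte library, and within each fate the tdTomato line was below the EYFP line with no overlap. The fall was 1.70 ± 0.16 in the tdTomato line (adjusted p = 2.93e-08), 1.83 in the EYFP line (adjusted p = 1.19e-08) and 2.22 in the hippocampal line (adjusted p = 7.28e-10), a mean fold of 3.77.

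Dll3, on chromosome 7 (28293553 to 28302238), is known for holding back Notch within its own cell rather than activating it on neighbors, and had the largest fall of the members. In NSCs it stood at 7.91, 7.84 and 7.75 in the tdTomato line, 8.53, 8.21 and 8.22 in the EYFP line and 7.71, 8.06 and 7.96 in the hippocampal line. In astrocytes it stood at 4.41, 4.76 and 5.81 in the tdTomato line, 5.88, 4.96 and 5.84 in the EYFP line and 4.39, 5.46 and 5.74 in the hippocampal line. The fates lay far apart, and the astrocyte libraries of a line were more spread out than its NSC libraries. The fall was 2.83 ± 0.34, 2.76 ± 0.34 and 2.72 ± 0.34 in the tdTomato, EYFP and hippocampal lines (adjusted p = 4.47e-07, 6.96e-07 and 7.97e-07).

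Jag1, the Jagged ligand of the set, lies on chromosome 2 (137081456 to 137116644). Its values were 10.48 to 10.51 in tdTomato NSCs, 10.17 to 10.28 in EYFP NSCs and 9.98 to 10.14 in hippocampal NSCs, and 9.28 to 9.38, 9.19 to 9.26 and 8.69 to 8.87 in the astrocytes. No neighboring groups in this order overlapped. The closest were tdTomato and EYFP astrocytes, whose difference was not called (0.09, adjusted p = 0.336). The falls of 1.18 ± 0.054, 0.98 ± 0.054 and 1.29 ± 0.054 in the tdTomato, EYFP and hippocampal lines were each called, at adjusted p of 9.61e-13, 1.38e-11 and 2.51e-13.

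Jag1 fell by less than Dll1 and Dll3 in each line, and the make-up of these 3 ligands shifted. Per kb of exon, Dll1 held 47.9% ± 2.1, 64.8% ± 1.6 and 65.6% ± 1.6 (SD, n = 3) of their summed level in tdTomato, EYFP and hippocampal NSCs. In the astrocytes of these lines it held 43.4% ± 3.0, 57.8% ± 2.3 and 55.2% ± 5.8. The share of Jag1 went from 39.5% to 51.1% in the tdTomato line, from 22.7% to 36.3% in the EYFP line and from 23.7% to 38.2% in the hippocampal line, and that of Dll3 from 10.8% to 12.7% in the NSC groups to 5.47% to 6.63% in the astrocyte groups. These shares leave out the ligands Dll4 and Jag2, and they were computed again with both counted, a choice made after the values were seen. Dll4 then held 0.849%, 1.44% and 0.896% of the summed level of the 5 ligands in tdTomato, EYFP and hippocampal NSCs, and 23.7% ± 4.1, 20.0% ± 1.0 and 7.83% ± 0.50 in the astrocytes. The share of Jag1 was then 39.0% ± 2.0 in NSCs and 38.6% ± 2.2 in astrocytes of the tdTomato line, so that its higher share there depends on which ligands are counted. It went from 22.3% ± 1.7 to 28.8% ± 2.6 in the EYFP line and from 23.4% ± 2.2 to 34.9% ± 7.0 in the hippocampal line.

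**Figure D3:**
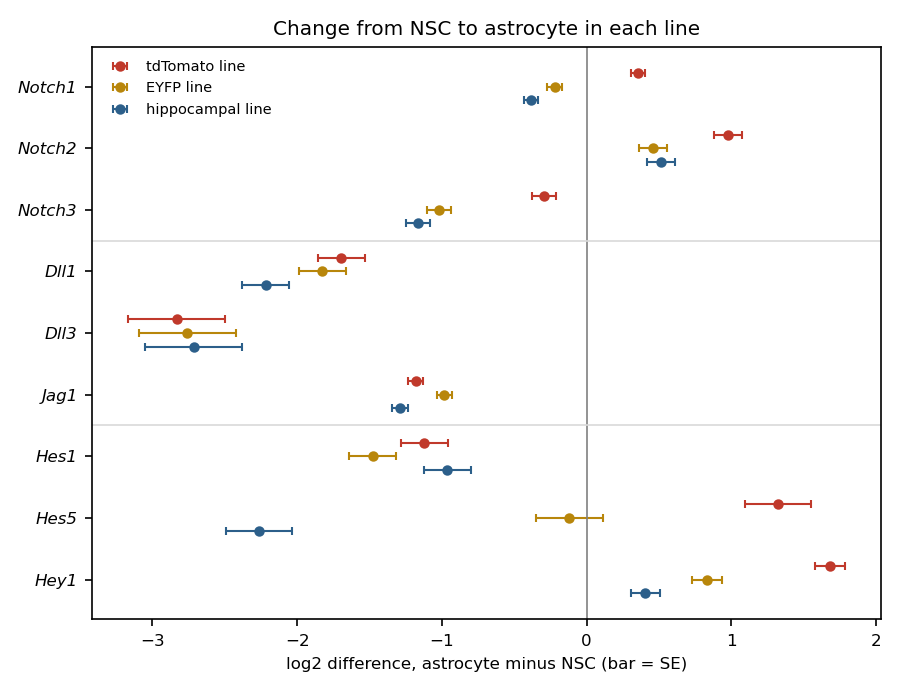
Log2 difference between astrocytes and NSCs (horizontal axis, points with SE) of the 9 members tested, in the tdTomato, EYFP and hippocampal lines. The ligands and Hes1 are left of 0 in each line, Notch2 and Hey1 are right of 0, and Hes5 spreads from -2.26 in the hippocampal to 1.32 in the tdTomato line.

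The targets did not move together. Hes1, a repressor that is also expressed apart from Notch input and lies on chromosome 16 (30064384 to 30067796), stood between 9.03 and 9.99 in the 9 NSC libraries and between 8.05 and 8.55 in the 9 astrocyte libraries. Its NSC libraries were spread widely within each line, and yet no astrocyte library reached them. The fall was 1.12 ± 0.16 in the tdTomato line (adjusted p = 5.13e-06), 1.48 in the EYFP line (adjusted p = 1.71e-07) and 0.96 in the hippocampal line (adjusted p = 3.11e-05).

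Hes5, a repressor regarded as a close readout of Notch activity in neural progenitors, is shown with its promoter because its course differed most between the lines. It lies on chromosome 4 (154960923 to 154962371), and the 250 bases before its RefSeq start (GRCm38.p6, chr4:154960673-154960922, plus strand) hold the letters GTGGGAA of RBPJ in 2 places, in capitals here, on the minus strand (read here as TTCCCAC) 226 to 220 and on the plus strand 83 to 77 bases before the start.
Hes5: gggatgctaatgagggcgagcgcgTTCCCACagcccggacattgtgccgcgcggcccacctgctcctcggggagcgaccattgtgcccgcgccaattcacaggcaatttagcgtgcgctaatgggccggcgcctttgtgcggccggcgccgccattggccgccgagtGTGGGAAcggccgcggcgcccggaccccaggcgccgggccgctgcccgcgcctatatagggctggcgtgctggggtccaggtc
Both strands were searched, 5.42% of the 32851 windows hold at least 1 match and 0.16% hold 2 or more. None of the other 6 members with a window held a match, and windows were found for 7 of the 10 members, not for Hes1, Hey1 and Heyl.

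In NSCs Hes5 stood at 5.95, 5.83 and 5.02 in the tdTomato line, 7.76, 7.95 and 8.01 in the EYFP line and 7.89, 8.07 and 8.20 in the hippocampal line. In astrocytes it stood at 6.78, 6.82 and 7.17 in the tdTomato line, 7.81, 7.75 and 7.80 in the EYFP line and 5.24, 6.29 and 5.83 in the hippocampal line. The tdTomato NSCs and the hippocampal astrocytes were thus the low groups and overlapped each other, EYFP cells of both fates and hippocampal NSCs were high, and tdTomato astrocytes lay between.

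Hes5 accordingly rose in the tdTomato line, by 1.32 ± 0.23 (adjusted p = 4.4e-05), and fell in the hippocampal line, by 2.26 ± 0.23 (adjusted p = 6.07e-08). In the EYFP line the difference was -0.12 ± 0.23 and was not called (adjusted p = 0.649). The mean fall of 0.35 (adjusted p = 0.0195) joins opposite changes and was not called with line as an additive covariate (adjusted p = 0.397).

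Hey1, a Hey family repressor on chromosome 3 (8663359 to 8667256), was the only target that rose in each line. In NSCs it stood at 8.75, 8.65 and 8.55 in the tdTomato line, 9.72, 9.71 and 9.67 in the EYFP line and 9.69, 9.66 and 9.74 in the hippocampal line. In astrocytes it stood at 10.49, 10.19 and 10.31 in the tdTomato line, 10.70, 10.50 and 10.40 in the EYFP line and 10.39, 9.99 and 9.92 in the hippocampal line. The fates did not overlap, and the tdTomato NSCs lay well under all other libraries. The rise was 1.68 ± 0.10 in the tdTomato line (adjusted p = 4.98e-11), 0.83 in the EYFP line (adjusted p = 7.85e-07) and 0.41 in the hippocampal line (adjusted p = 0.00157).

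With Hes1 falling and Hey1 rising, the leading target changed with fate. Per kb of exon, Hes1 held 68.4% ± 4.9, 47.4% ± 5.3 and 43.3% ± 6.9 (SD, n = 3) of the summed level of Hes1, Hes5 and Hey1 in tdTomato, EYFP and hippocampal NSCs. It held 24.8% ± 0.96, 18.4% ± 0.13 and 31.6% ± 3.5 in the astrocytes. Hey1 held 24.2%, 31.1% and 32.0% in the NSCs and 61.3% ± 3.0, 60.1% ± 1.5 and 60.7% ± 5.8 in the astrocytes, where the lines differed by less than 1 SD. Per kb of exon, Hes1 lay above Hey1 in 9 of 18 libraries, and all 9 were NSCs. The share of Hes5 was 7.32% ± 2.5 in tdTomato NSCs and 7.73% ± 3.1 in hippocampal astrocytes, and 13.9% to 24.7% in the other groups.

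Taken line by line, 4 members rose and 5 fell in the tdTomato line, where 78.4% of all genes were called (39.9% higher and 38.5% lower). In the EYFP line 2 rose and 6 fell, against 75.2% of all genes called (38.2% higher and 37% lower), and in the hippocampal line 2 rose and 7 fell, against 76.3% (39% higher and 37.3% lower). Changes of at least 1 on the log2 scale numbered 6, 4 and 5 in these lines, a size reached by 26.8%, 24.5% and 25.6% of all genes. Whether a change differed between lines was tested as an interaction.

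Between the traced lines, the change of 5 members was called different, against 13.3% of all genes (6.36% with the higher and 6.98% with the lower change in the tdTomato line). All 5 had the higher (more positive) change in the tdTomato line: Hes5 by 1.44 ± 0.33 (adjusted p = 0.00719), Hey1 by 0.85 ± 0.14 (adjusted p = 0.000978), Notch3 by 0.73 ± 0.12 (adjusted p = 0.000687), Notch1 by 0.58 ± 0.070 (adjusted p = 7.6e-05) and Notch2 by 0.52 ± 0.14 (adjusted p = 0.0181). The call of Notch2 was lost without tdTomato NSC replicate 2 or 3 or EYFP NSC replicate 1 or 2 (adjusted p of 0.0508 to 0.0553). The count over all genes, 2060, was 1317 without tdTomato NSC replicate 3. No ligand was among the 5, nor was Hes1. For Dll1 the difference in change was 0.13 ± 0.23, for Dll3 -0.07 ± 0.47, for Jag1 -0.20 ± 0.076 and for Hes1 0.36 ± 0.23.

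Between the mean of the traced lines and the hippocampal line, the change of 5 members was called different, against 46.2% of all genes (20.3% with the higher and 25.9% with the lower change in the traced lines). Over all genes called, 43.9% had the higher change in the traced lines, and 56.2% after median centring of the libraries, so that the balance of directions depends on the scaling. The same centring moved it from 47.7% to 55.4% for the change by traced line, from 53.2% to 43.5% and from 46.7% to 54.1% for the differences of traced from hippocampal NSCs and astrocytes, and from 52.3% to 46.1% and from 49.1% to 51.5% for those of tdTomato from EYFP NSCs and astrocytes. The difference, traced minus hippocampal, was 2.87 ± 0.28 for Hes5 (adjusted p = 2.47e-07), 0.85 ± 0.13 for Hey1 (adjusted p = 2.49e-05), 0.51 ± 0.10 for Notch3 (adjusted p = 0.000555), 0.45 ± 0.060 for Notch1 (adjusted p = 8.45e-06) and 0.21 ± 0.066 for Jag1 (adjusted p = 0.0159). For Notch1 and Hes5 the tdTomato line moved against the hippocampal line, and for Notch3, Jag1 and Hey1 all 3 lines moved the same way by different amounts. In the tdTomato, EYFP and hippocampal lines the changes were 0.35, -0.22 and -0.39 for Notch1 and -0.30, -1.02 and -1.17 for Notch3. In the same order they were 1.32, -0.12 and -2.26 for Hes5, 1.68, 0.83 and 0.41 for Hey1 and -1.18, -0.98 and -1.29 for Jag1. For Notch1 and Notch3 the EYFP line thus lay nearer the hippocampal than the tdTomato line. The call of Jag1 was lost without hippocampal NSC replicate 2 (adjusted p = 0.0564) and without hippocampal astrocyte replicate 3 (adjusted p = 0.0615).

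Between the NSCs of the traced lines most members differed. In tdTomato against EYFP NSCs, 6 members were lower and Jag1 was higher, 7 of the 9 tested, against 31.4% of all genes (14.9% lower and 16.4% higher). The lower ones were Hes5 by 2.31 ± 0.23 (adjusted p = 1.06e-06), Hey1 by 1.05 ± 0.10 (adjusted p = 8.17e-07), Dll1 by 0.95 ± 0.16 (adjusted p = 0.000295), Notch3 by 0.85 ± 0.083 (adjusted p = 9.23e-07), Notch1 by 0.49 ± 0.049 (adjusted p = 1.09e-06) and Notch2 by 0.37 ± 0.097 (adjusted p = 0.00814). Jag1 was higher by 0.29 ± 0.054 (adjusted p = 0.000659). The libraries of the lines did not overlap for these 7 or for Dll3, 8 of 9 members against 46.9% of all genes. Hes1 differed by -0.16 ± 0.16 and Dll3 by -0.49 ± 0.34, neither called (adjusted p = 0.497 and 0.29).

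Other cell markers moved with this difference. The summed level of the fibroblast markers was 6.59 to 6.83 in tdTomato NSCs, 5.37 to 5.48 in EYFP NSCs and 4.71 to 4.98 in hippocampal NSCs, and that of the ependymal markers was 9.45 to 9.81 in tdTomato NSCs and 10.29 to 10.51 in the other NSCs. Astrocyte markers stood at 14.15 to 14.54 in tdTomato and 14.62 to 14.86 in EYFP NSCs and NSC markers at 16.32 to 16.34 and 16.35 to 16.42, also without overlap, while the other lists overlapped. Their part in the result was not tested.

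In astrocytes, tdTomato and EYFP cells differed in 2 members, against 14.4% of all genes (7.31% lower and 7.06% higher in tdTomato cells). Dll1 was lower in tdTomato astrocytes by 0.82 ± 0.16 (adjusted p = 0.00183) and Hes5 by 0.86 ± 0.23 (adjusted p = 0.0158). The call of Hes5 was lost without tdTomato astrocyte replicate 1 (adjusted p = 0.0527), without tdTomato astrocyte replicate 2 (adjusted p = 0.064) and without EYFP astrocyte replicate 3 (adjusted p = 0.0506). Among the marker lists, fibroblast markers stood at 5.99 to 6.28 in tdTomato and 5.16 to 5.36 in EYFP astrocytes, oligodendrocyte markers at 11.45 to 11.57 and 10.98 to 11.24, neuronal markers at 8.61 to 8.76 and 8.37 to 8.54 and NSC markers at 16.37 to 16.48 and 16.49 to 16.62, each without overlap, and their part was not tested.

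**Figure D4:**
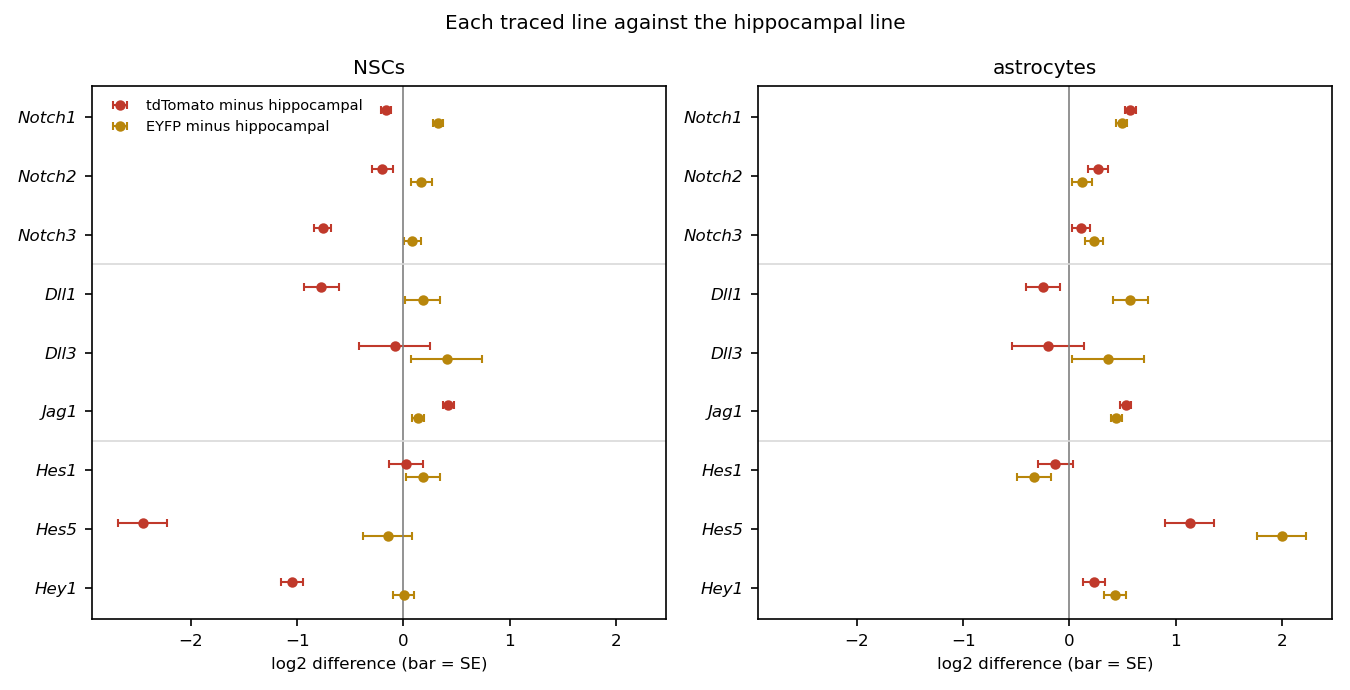
Log2 difference of the tdTomato and the EYFP line from the hippocampal line (horizontal axis, points with SE) for the 9 members tested, in NSCs (left) and astrocytes (right). In NSCs only the tdTomato line stands far below the hippocampal line, at -2.45 for Hes5 and -1.05 for Hey1, and in astrocytes both traced lines are above it for Notch1, Jag1, Hes5 and Hey1.

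Against the hippocampal line, the mean of the traced NSCs was lower in Hes5 (by 1.30), Hey1 (by 0.52) and Notch3 (by 0.34) and higher in Jag1 (by 0.28), 4 members against 31.9% of all genes (14.9% lower and 17% higher). The lower values came from the tdTomato line, as the values of each line against the same 3 hippocampal libraries show. In tdTomato against hippocampal NSCs 5 members were lower, Hes5 by 2.45, Hey1 by 1.05, Dll1 by 0.77, Notch3 by 0.76 and Notch1 by 0.17, and Jag1 was higher by 0.42, against 37.2% of all genes (17.3% lower and 19.8% higher). In EYFP against hippocampal NSCs Notch1 was higher by 0.33 (adjusted p = 6.58e-05) and no other member was called, against 25.8% of all genes (13.8% higher and 12% lower). There the differences were -0.15 ± 0.23 for Hes5, 0.00 ± 0.10 for Hey1 and 0.09 ± 0.083 for Notch3. With both traced lines pooled into 1 group of 6 libraries, which counts the difference between them as spread, none of the members was called by limma (adjusted p of 0.21 for Hes5, 0.256 for Hey1, 0.395 for Notch3 and 0.0583 for Jag1). Oligodendrocyte markers stood at 12.02 to 12.18 in traced and 11.47 to 11.78 in hippocampal NSCs and astrocyte markers at 14.15 to 14.86 and 15.17 to 15.25, and their part was not tested.

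In astrocytes, the traced mean was higher in Hes5 by 1.57 ± 0.20 (adjusted p = 2.4e-06), in Notch1 by 0.53 ± 0.043 (adjusted p = 6.32e-09), in Jag1 by 0.49 ± 0.047 (adjusted p = 6.92e-08) and in Hey1 by 0.33 ± 0.089 (adjusted p = 0.00381). These 4 stand against 59.7% of all genes called, 27.9% higher and 31.9% lower. The traced lines did not overlap the hippocampal line for 3 members, Notch1, Jag1 and Hes5, against 47.3% of all genes. Each traced line alone gave the same call for Notch1, Jag1 and Hes5 (58.2% of all genes called for the tdTomato line, 27.2% higher and 31% lower, and 51.6% for the EYFP line, 24.1% higher and 27.5% lower), whereas Hey1 was called in the EYFP line alone and not in the tdTomato line (0.23, adjusted p = 0.0633). The EYFP line alone was also higher in Dll1 (by 0.57, adjusted p = 0.0068) and Notch3 (by 0.23, adjusted p = 0.0277), and the tdTomato line alone in Notch2 (by 0.27, adjusted p = 0.0235). Notch3 (0.17, adjusted p = 0.0508) and Notch2 (0.20, adjusted p = 0.0537) lay just outside the threshold and passed it under several alternatives. Without hippocampal astrocyte replicate 3, 7 members were called, Notch2, Notch3 and Dll1 in addition. Ependymal markers moved as well, at 11.02 to 11.37 in traced and 12.19 to 12.35 in hippocampal astrocytes. The same held for astrocyte markers (15.90 to 16.75 against 16.97 to 17.31) and NSC markers (16.37 to 16.62 against 17.56 to 17.87), of which Nes, Sox2 and Vim were lower and Fabp7 and Prom1 higher in the traced. Fibroblast markers (5.16 to 6.28 against 4.38 to 4.62), mural markers (8.58 to 8.86 against 8.04 to 8.28) and oligodendrocyte markers (10.98 to 11.57 against 10.47 to 10.59) had higher summed levels in the traced astrocytes. By gene, Col1a1, Lum and Col3a1 were higher among the fibroblast markers, Myh11 alone was called, higher, among the mural markers, and the oligodendrocyte markers moved in both directions, with Cspg4 higher and Mbp and Pdgfra lower. Their part in the members' differences was not tested.

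Huwe1, the gene floxed in the hippocampal line, was not called between traced and hippocampal cells in NSCs (0.04, adjusted p = 0.589) or astrocytes (0.02, adjusted p = 0.797), which checks nothing if only part of the gene is removed. Clec9a was not found by name among the deposited genes and so was not analysed here.

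Of 62 further pathway genes, 56 were tested. From NSC to astrocyte, averaged over the lines, 25 rose, 24 fell and 7 were not called, near the 44.3% higher and 42% lower of all genes, and their median size of change of 0.43 was under the 0.50 of all genes. By role, of 6 other receptors and ligands 4 rose and none fell, of 10 genes of receptor cleavage 7 rose and 2 fell, and of 10 co-repressors 2 rose and 8 fell. Of 5 glycosylation genes 1 rose and 3 fell, of 4 genes of ligand endocytosis 1 rose and 3 fell, of 9 of the nuclear complex 4 rose and 3 fell, and of 9 of turnover and feedback 4 rose and 4 fell. RBPJ, the DNA-binding partner of cut Notch, is encoded by Rbpj, whose mean change was not called (0.04, adjusted p = 0.259). Rbpj rose by 0.23 in the hippocampal line (adjusted p = 0.00202) and was not called in the traced lines, and its change differed between them by -0.28 (traced minus hippocampal, adjusted p = 0.0043).

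**Figure D5:**
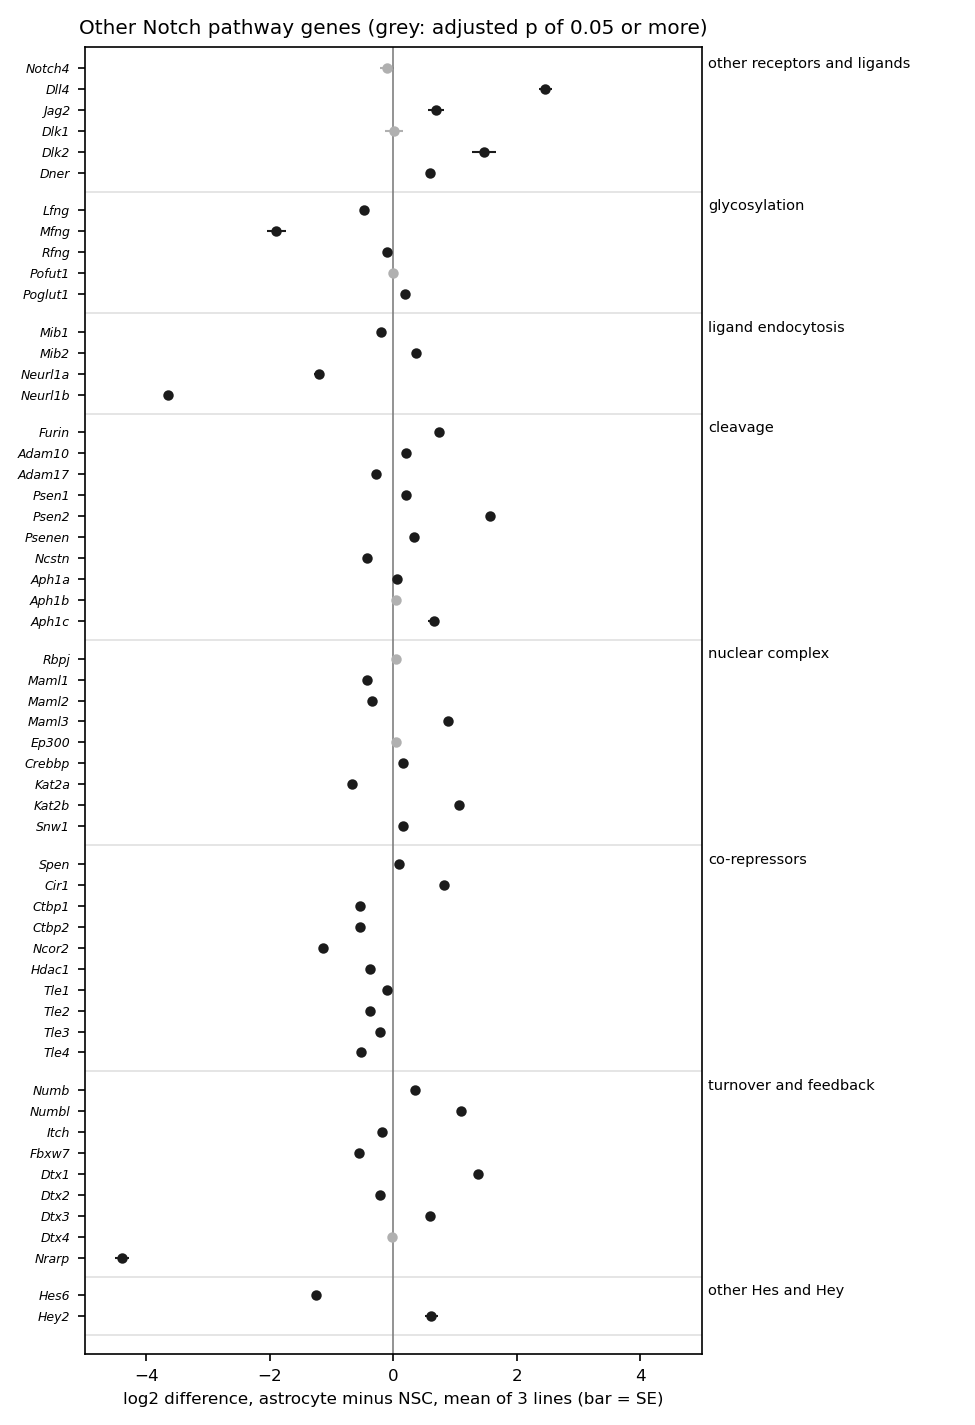
Log2 difference between astrocytes and NSCs, averaged over the 3 lines (horizontal axis, points with SE), of further pathway genes tested, by role. Nrarp at -4.40 and Neurl1b at -3.65 lie farthest left and Dll4 at 2.46 farthest right, with most of the co-repressors left of 0.

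Among them, Nrarp, a target that feeds back on Notch by promoting loss of the cut receptor, fell by 4.40 ± 0.11 (adjusted p = 7.39e-17), with falls of 3.76, 5.04 and 4.39 in the tdTomato, EYFP and hippocampal lines. Neurl1b, an E3 ligase that acts on ligands, fell by 3.65 ± 0.049 (adjusted p = 1.12e-20), Mfng, a Fringe that adds sugar to the receptors, by 1.89 and Hes6, a Hes family member, by 1.25. Dll4, another activating ligand, rose by 2.46 ± 0.10 (adjusted p = 7.95e-14), opposite to Dll1, Dll3 and Jag1. Psen2, a catalytic subunit of the gamma-secretase that cuts the receptor, rose by 1.57, Dlk2, a Delta-like protein, by 1.47 and Dtx1, a Deltex ligase, by 1.37. Of these 8, Mfng (-0.43, adjusted p = 0.153) and Dlk2 (-0.14, adjusted p = 0.71) were not called in the tdTomato line. Mfng and Dlk2 passed the filter only through groups where they were high: Mfng was under 3.32 in all astrocyte and tdTomato NSC libraries, and Dlk2 in all NSC libraries.

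Dll4 rose in each line (tdTomato 3.63, EYFP 2.46, hippocampal 1.29) and was higher by 2.00 ± 0.15 in traced than in hippocampal astrocytes (adjusted p = 3.71e-09). In tdTomato NSCs, where Hes5 and Hey1 were low, Nrarp was lower than in EYFP NSCs by 1.28 ± 0.20 (adjusted p = 0.000105) and Hey2 by 0.95 ± 0.18 (adjusted p = 0.000855). Pathway genes that are not Hes or Hey targets were lower there too. Dll4 stood at a mean of 4.37 in tdTomato and 5.66 in EYFP NSCs, and Mfng at 2.78 and 4.91. Over all pathway genes 8 were higher and 21 lower in tdTomato than in EYFP NSCs, against 16.4% and 14.9% of all genes, and 18 and 19 in all were left without EYFP NSC replicate 1 or tdTomato NSC replicate 3. In astrocytes, where 14.4% of all genes were called, 1 was higher (Neurl1a, an E3 ligase that acts on ligands) and 3 were lower (Dlk2, Dner, a neuronal Delta-like protein, and Numbl, a relative of the Notch inhibitor Numb).

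Between traced and hippocampal NSCs 10 pathway genes were higher and 7 lower of the 56, near the 31.9% of all genes called. Among the largest differences were Maml3, a Mastermind co-activator, at 1.20 higher, Neurl1a at 1.05 higher and Mfng at 1.35 lower. With the traced lines pooled, Mfng was not called by limma (adjusted p = 0.16). With the EYFP line alone against the hippocampal line it was not called either (-0.29, adjusted p = 0.501). The lower value of Mfng thus came from tdTomato NSCs, which stood at 2.44 to 2.99, under the filter value. In astrocytes 13 were higher and 19 lower, near the 59.7% of all genes called, among them Neurl1a (1.36 higher) and Tle2, a Groucho co-repressor (1.15 higher). Dlk1, an imprinted Delta-like gene, was called higher in the traced cells of both fates, but it passed the filter only through EYFP libraries and stood at 1.36 to 1.43 in all 6 hippocampal libraries. Dlk2 was called lower in traced astrocytes, and it too passed only through groups where it was high, chiefly the hippocampal astrocytes at 5.13 to 5.55.

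The genes whose values were most like those of each member across the 18 libraries were found by Pearson correlation over 10586 genes. They are a description, since the libraries share lines and fates. Among the closest to Notch1 was Cdh13 (r = 0.911). The closest pair was Med13l (0.965) and Adcyap1r1 (0.957) for Notch2, and Cldnd1 (0.966) and Sox4 (0.963) for Notch3. It was Nr4a1 (0.981) and Spry2 (0.979) for Dll1, Ehmt2 and Unk (both 0.978) for Dll3, and Ncapg2 (0.991) and Tle6 (0.989) for Jag1. Among the targets it was Erf (0.966) and Add2 (0.961) for Hes1, Fam210b (0.935) and Itga6 (0.920) for Hes5, and Rgma (0.968) and Zeb2 (0.957) for Hey1. Hes5 and Notch1, the members whose direction of change differed between lines, had the lowest of these values.

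Shared sequence could affect some members. Of the 75-base stretches in annotated transcripts, 16.5% of those of Hes5, 13.7% of Dll1, 8.77% of Notch1, 4.23% of Notch3 and 3.06% of Notch2 also occur in other genes, and none of those of Dll3, Jag1, Hes1 and Hey1. The strand setting of the counting is not given in the sources used here. Genes on the opposite strand overlap Hes5 (Gm20421, log2 values of 1.40 to 3.68), Dll1 (A930024N18Rik, 4.27 to 5.42), Notch3 (Gm17276, -1.04 to -0.51) and Notch1 (0610009E02Rik, 3.07 to 7.44, and Gm13568, 7.66 to 8.28), each below its partner in every library, and Gm42819 and Gm42820 (1.13 to 2.88) overlap Notch2 on its own strand.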

How the data were processed

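Per the authors, single-end reads were aligned with STAR, gene-level counts were estimated with RSEM on GRCm38 (Ensembl), and the counts were normalized with DESeq2 (version 1.18.1 in the submitters' processing notes). The authors deposited log2 values for 27997 genes in 18 libraries, of which 29.4% are negative. Their form is that of a regularized log, which would pull weakly expressed genes toward their mean, but the transform is not named. Read counts could not be got back from them, so the depth of each library is not known from the values and counting error was not estimated. The paper and the labels name different library kits.

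Here, limma (version 3.58.1, R 4.3.3) with a variance trend was fitted to the deposited values with no pseudocount, with 1 mean for each of the 6 groups. The filter was 10 on the linear scale in 3 libraries, and p-values were adjusted over all 15448 genes tested. The fit was tested on simulated data. Levels per length used GENCODE exons (GRCm38), and promoter windows came from RefSeq (GRCm38.p6). The 10 members and the lists were chosen with earlier results of these data known. Pathway genes other than members were named where called by at least 1 on the log2 scale, the 4 largest in each direction, and Hey2, Rbpj and the genes called between traced astrocytes were added after their values were seen. Some genes of these lists are not reported here. For the genes most like a member, the 2 protein-coding genes with the highest correlation were named, among those with a mean of at least 100 on the linear scale. Results were recomputed with other filters, pseudocounts of 1 and 10, other scalings and designs, limma with no variance trend, the replicate number as a block, and each library left out in turn. Each traced line alone against the hippocampal line was added after seeing the data.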

Additional observations from a re-analysis of the deposited data

Results flagged for a closer look

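The change from NSC to astrocyte differed between lines by a test of the difference itself (an interaction in limma, Benjamini-Hochberg adjusted p under 0.05) for 6 members. Between the mean of the traced lines and the hippocampal line the differences, on the log2 scale, were 2.87 for Hes5, 0.85 for Hey1, 0.51 for Notch3, 0.45 for Notch1 and 0.21 for Jag1, where 46.2% of all genes were called. The call of Jag1 was lost without hippocampal NSC replicate 2 (0.18, adjusted p = 0.0564) and without hippocampal astrocyte replicate 3 (0.16, adjusted p = 0.0615). Between the tdTomato and the EYFP line, where 13.3% of all genes were called, they were 1.44 for Hes5, 0.85 for Hey1, 0.73 for Notch3, 0.58 for Notch1 and 0.52 for Notch2. The call of Notch2 was lost without tdTomato NSC replicate 2 or 3 or EYFP NSC replicate 1 or 2, with adjusted p of 0.0508 to 0.0553. For Hes5 the tdTomato line rose, the hippocampal line fell and the EYFP line was not called. For Notch1 and Notch3 the EYFP line lay nearer the hippocampal than the tdTomato line. The changes in the tdTomato, EYFP and hippocampal lines were 0.35, -0.22 and -0.39 for Notch1 and -0.30, -1.02 and -1.17 for Notch3.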

How the results depend on the processing

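Among the values of members and named genes under alternatives, 2039 kept their direction and their side of the threshold, 25 passed it newly, 21 lost it, 26 changed sign with no call under either setting (values of at most 0.32 in size, of Notch2, Dll1, Dll3 and Hes1, in the comparisons between lines), and 3 changed sign with a call. The latter were between NSCs of the traced and the hippocampal lines, where Notch1 was -0.17 with the tdTomato line alone, and Notch3 was 0.086 and Hey1 0.0022 with the EYFP line alone. In that comparison, pooling the traced lines as 6 against 3 libraries gave 2822 genes against 4932, 0 members against 4 (limma; 4932 and 4 come from the fit of 6 groups) and 10 pathway genes against 17, since the difference between the traced lines then counts as spread, and the EYFP line alone gave 1 member. In astrocytes the fit to only the groups compared gave 7 members against 4, and leaving out 1 library gave 4 to 7. Leaving out 1 library gave 18 to 27 pathway genes between traced NSCs (29 with all), 1 to 2 members and 3 to 7 pathway genes between traced astrocytes (2 and 4 with all), and 1317 to 2493 genes for the change by traced line (2060 with all). Between traced astrocytes quantile normalization gave 7 pathway genes. The cause was not tested.

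The replicate numbers were not taken as pairing the libraries. Deviations of same-numbered libraries correlated by 0.012 to 0.31 between lines of the same fate and by -0.077 to 0.034 between fates of the same line, although 17 of 18 libraries were closest to their own number. A fit with the replicate block gave 13373 genes for the mean change to astrocyte (13335 without), the same counts of members in each comparison, and 8 pathway genes between traced astrocytes (4 without). The block had the same effect in both fates, so deviations shared only within a fate were not fully taken out.

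The depth of each library is not known from the values, each line is 1 culture line, and its libraries are passages of it. If the values are regularized logs, changes of genes with low values, such as Dll3, are understated, which was not measured. With the longest transcript in place of all exons, levels per length of the receptors moved by more than 1 SD.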
